A study of Mus musculus with 80 samples.

Results

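Epithelial junction and identity genes were examined in mammary tumours of FVB mice that carried the Myc oncogene under the MMTV promoter, which drives expression in mammary epithelium. The members were Cdh1, Epcam, Cldn3, Cldn4, Cldn7, Ocln, Tjp1, Esrp2, Spint1 and Krt18, and all probe sets naming 1 of them were used: 14 of 22626 probe sets, for 10 of 12393 genes. The tumours fell into 4 groups of 20: E2F1 null, E2F2 null, E2F3 heterozygous (1 allele remains) and wild type for the E2F genes. Every group carried the Myc transgene, so no group was free of it, and each array held RNA of 1 whole flash-frozen tumour. The labels do not give the age of the mice. In the labels each tumour carries a number before a hyphen. The 80 tumours had 53 such numbers, 16 in E2F1 null, 11 in E2F2 null, 10 in E2F3 heterozygous and 16 in wild-type tumours, and 46 tumours shared theirs with another tumour of the same genotype. What this label number stands for is not stated, so tumours sharing it were not treated as independent. The p-values below measure the spread between these samples.

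Epithelial cells are held in sheets by junctions between neighbours. Adherens junctions are built on E-cadherin, and tight junctions seal the space between cells with claudins and occludin, which are tied to the actin cytoskeleton by scaffold proteins such as ZO-1. In a change of cell state known as the epithelial to mesenchymal transition, zinc finger and helix-loop-helix factors of the Snail, Zeb and Twist families lower the transcription of many of these genes, in part through E-box sequences in their promoters.

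Of the members, Cdh1 encodes E-cadherin (probe set 1448261_at, chr8:106603350-106670247) and Epcam encodes an epithelial surface adhesion molecule that binds claudin-7 (1416579_a_at, chr17:87635979-87651127). The strands of the tight junction are represented by the claudins Cldn3 (4 probe sets, chr5:134986214-134987476), Cldn4 (1418283_at, chr5:134945123-134946934) and Cldn7 (1448393_at, chr11:69964779-69967886), and by occludin, Ocln (1448873_at, chr13:100496504-100552718). Tjp1 encodes the scaffold ZO-1 (1417749_a_at, chr7:65296165-65527850). Esrp2 encodes an epithelial splicing regulator (2 probe sets, chr8:106130319-106137193). Spint1 encodes a membrane inhibitor of serine proteases such as matriptase (1416627_at, chr2:119237360-119249535). Krt18 encodes the type I keratin of simple epithelia, the partner of keratin 8 (1448169_at, chr15:102028216-102032026). Gene positions are those of RefSeq in mouse build GRCm38.p6.

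The promoters of the 3 tight junction strand genes whose levels moved most closely together are shown with a promoter of Tjp1, whose level did not follow theirs. Each runs 5′ to 3′ along the gene's strand, from 250 bases before to 50 bases after the start of a RefSeq transcript in GRCm38.p6. Capitals mark the E-box CACCTG, searched on both strands, so that it is also written CAGGTG. Cldn3 is chr5:134985964-134986263 (plus strand), Cldn7 is chr11:69965171-69965470 (plus strand), Ocln is chr13:100552449-100552748 (minus strand) and Tjp1 is chr7:65371195-65371494 (minus strand).
Cldn3: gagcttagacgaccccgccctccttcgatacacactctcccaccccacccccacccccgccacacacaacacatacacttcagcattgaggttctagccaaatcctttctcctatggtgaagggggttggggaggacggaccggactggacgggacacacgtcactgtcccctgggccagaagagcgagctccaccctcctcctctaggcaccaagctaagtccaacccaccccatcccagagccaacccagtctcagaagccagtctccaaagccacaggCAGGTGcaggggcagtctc
Cldn7: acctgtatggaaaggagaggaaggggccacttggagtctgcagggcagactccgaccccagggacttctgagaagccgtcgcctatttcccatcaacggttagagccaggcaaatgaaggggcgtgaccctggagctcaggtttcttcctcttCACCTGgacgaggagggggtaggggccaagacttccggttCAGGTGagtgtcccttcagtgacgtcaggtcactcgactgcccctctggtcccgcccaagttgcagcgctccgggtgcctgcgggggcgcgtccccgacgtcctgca
Ocln: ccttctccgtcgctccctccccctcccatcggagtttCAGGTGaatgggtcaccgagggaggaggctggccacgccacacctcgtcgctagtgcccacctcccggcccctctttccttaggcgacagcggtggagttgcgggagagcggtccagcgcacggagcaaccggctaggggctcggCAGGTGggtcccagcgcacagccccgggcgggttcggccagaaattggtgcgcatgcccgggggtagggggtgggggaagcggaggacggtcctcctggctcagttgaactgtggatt
Tjp1: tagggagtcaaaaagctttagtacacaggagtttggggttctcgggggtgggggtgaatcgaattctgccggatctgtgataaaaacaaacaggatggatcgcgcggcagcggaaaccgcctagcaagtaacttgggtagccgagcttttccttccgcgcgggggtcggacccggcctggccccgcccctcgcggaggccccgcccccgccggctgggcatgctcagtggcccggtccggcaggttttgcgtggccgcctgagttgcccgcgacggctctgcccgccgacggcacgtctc

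In Cldn3 the 1 match starts at base 32 after the start, in Cldn7 the 2 matches start 97 and 57 bases before it, and in Ocln the 2 matches start 213 and 68 bases before it. The Tjp1 window holds none. That window lies inside the gene, whose upstream end on the minus strand, at 65527850, was not searched. Promoter entries existed for 8 of the 10 members, with 10 promoters in all, and 6 of the 8 genes had at least 1 match: Cldn3, Cldn4, Cldn7, Epcam, Krt18 and Ocln. A second Cldn7 promoter, which starts further upstream, held no match, and neither did that of Spint1. Cdh1 and Esrp2 had no entry. Over all 32851 promoters in the table, 20.2% held a match, and over its 27025 genes 22.6% did. A match is a run of letters and not a measured binding site.

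Levels are given as log2(intensity + 5), called log2 signal here, where 5 is a pseudocount added to the deposited intensity. The arrays had been scaled to a common mean by the authors, so a change in total mRNA per cell cannot be seen. Signals of different probe sets are not compared with each other. A gene was tested when it exceeded an intensity of 74.6, a log2 signal of 6.31, on at least 10 arrays, which 8769 genes did. All 10 members were tested, and by their brightest probe sets they lay above that value on all 80 arrays. The second Esrp2 probe set did so on 76 of 80. That value is a percentile of the intensities and not a detection call. In whole tumours, fewer epithelial cells and less RNA per epithelial cell cannot be told apart. Of the deleted genes, E2f1 differed between E2F1 null and wild-type tumours by -0.59 on the log2 scale with 1 of 2 probe sets (SE 0.13, limma p = 3.46e-05) and by -0.18 with the other (SE 0.10). With every probe set tested alone, the first had a limma adjusted p of 0.0542, just short of 0.05. E2f3 had -0.19 (SE 0.12) in E2F3 heterozygous over wild-type tumours, and E2f2 was not analysed here. Myc differed from wild type by 0.01 without E2F1, by 0.07 without E2F2 and by -0.02 with 1 E2F3 allele.

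The first question was whether losing an E2F gene altered the level of these genes in Myc-driven tumours. None of the 10 members passed an adjusted p of 0.05 in any background, by limma with label number as a random block and Benjamini-Hochberg adjustment over all 8769 genes. Few genes did: 0.0456% of all tested genes were called without E2F1, 0.0228% without E2F2, 0% with 1 E2F3 allele, and 0.148% by the F test over the 4 genotypes. At an unadjusted p under 0.05 the members counted 0 of 10 in E2F1 null, 1 of 10 in E2F2 null, 0 of 10 in E2F3 heterozygous tumours and 0 of 10 by the F test. The share of all genes at that level was 1.28%, 6.14%, 0.661% and 4.24% in the same order. The members' median log2 fold change was -0.03 without E2F1 (0.01 over all genes), 0.07 without E2F2 (-0.01 over all genes) and 0.01 with 1 E2F3 allele (0.01 over all genes). The 3 comparisons share their wild-type tumours. In simulated data with the same number of genes and tumours, 100 genes were changed by 1 and 100 by 0.5 on the log2 scale. Between E2F1 null and wild type, this test then recovered 90% and 59% of them, in that order. So many changed genes ease the adjusted threshold, and far fewer genes were called in the real data. These shares therefore do not give the power for the members.

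**Figure D1:**
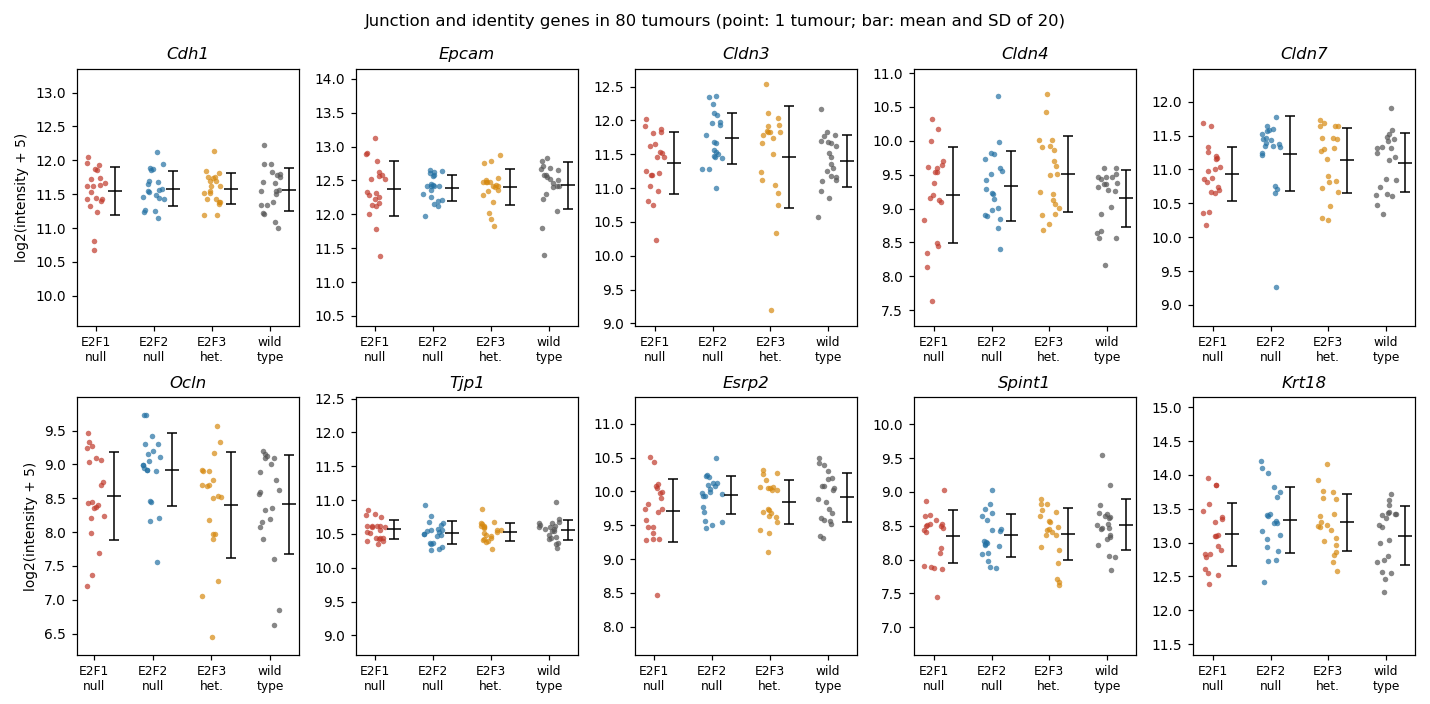
Log2 signal, log2(intensity + 5), of each gene in every tumour by genotype (het., heterozygous), with the mean and SD of 20 tumours beside the points. All panels span the same log2 range, so their spreads can be compared, and the 4 genotypes overlap in each. Tjp1 varies least and Ocln most, and single low tumours stand out for Cldn3 (9.20) in E2F3 heterozygous and Cldn7 (9.27) in E2F2 null tumours.

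Occludin was the 1 member with an unadjusted p under 0.05. Its lowest, median and highest log2 signals were 7.21, 8.44 and 9.46 in E2F1 null tumours, 7.56, 8.99 and 9.73 in E2F2 null tumours, 6.45, 8.61 and 9.57 in E2F3 heterozygous tumours, and 6.62, 8.58 and 9.20 in wild-type tumours. Ocln was thus higher in the middle of the E2F2 null group, while all 4 groups overlapped. The mean was 8.92 ± 0.53 in E2F2 null tumours and 8.41 ± 0.73 in wild-type tumours (SD, n = 20 each). Its log2 fold change in E2F2 null tumours was 0.51 (SE 0.23, 95% interval 0.05 to 0.96, limma p = 0.029, adjusted p = 0.788). In E2F1 null tumours it was 0.11 (SE 0.22) and in E2F3 heterozygous tumours 0.01 (SE 0.23), so the difference did not pass the threshold in any background.

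Cldn3 had 4 probe sets that followed one another closely, with r between 0.965 and 0.992 over the 80 tumours. By the brightest, 1460569_x_at, the lowest, median and highest log2 signals were 10.23, 11.46 and 12.02 in E2F1 null, 10.998, 11.68 and 12.36 in E2F2 null, 9.20, 11.76 and 12.54 in E2F3 heterozygous, and 10.58, 11.40 and 12.17 in wild-type tumours. The widest span, over 10.1-fold, lay within the E2F3 heterozygous group, and it was 4.61-fold there without replicate 4. Its log2 fold change in E2F2 null tumours was 0.32 (SE 0.17, limma p = 0.0677, adjusted p = 0.788). The 3 other probe sets gave 0.34 to 0.37, with p = 0.0449 the smallest of them, on the same side and also short of the adjusted threshold.

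Cldn4 lies next to Cldn3 on chromosome 5, with starts 41.1 kb apart. Its lowest, median and highest log2 signals were 7.64, 9.29 and 10.32 in E2F1 null, 8.40, 9.26 and 10.66 in E2F2 null, 8.69, 9.50 and 10.70 in E2F3 heterozygous, and 8.16, 9.34 and 9.60 in wild-type tumours. Several tumours of each mutant group lay above the highest wild-type tumour, and below that value the ranges overlapped. The largest difference, 0.33 on the log2 scale, was in E2F3 heterozygous tumours (SE 0.19, 95% interval -0.04 to 0.71, limma p = 0.0825, adjusted p = 1).

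Cldn7 had lowest, median and highest log2 signals of 10.18, 10.92 and 11.69 in E2F1 null, 9.27, 11.39 and 11.78 in E2F2 null, 10.25, 11.29 and 11.73 in E2F3 heterozygous, and 10.34, 11.21 and 11.91 in wild-type tumours. All groups overlapped, and its log2 fold changes over wild type were -0.17 without E2F1, 0.11 without E2F2 and 0.02 with 1 E2F3 allele (SE 0.15 to 0.16). The scaffold gene Tjp1 had lowest, median and highest log2 signals of 10.36, 10.58 and 10.85 in E2F1 null, 10.27, 10.51 and 10.93 in E2F2 null, 10.28, 10.54 and 10.87 in E2F3 heterozygous, and 10.29, 10.57 and 10.96 in wild-type tumours. It gave the narrowest intervals of the members: -0.10 to 0.11 without E2F1, -0.16 to 0.05 without E2F2 and -0.13 to 0.08 with 1 E2F3 allele.

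The adhesion genes showed small differences in every background. Cdh1 averaged 11.55 ± 0.35 in E2F1 null, 11.58 ± 0.26 in E2F2 null, 11.58 ± 0.23 in E2F3 heterozygous and 11.57 ± 0.32 in wild-type tumours (SD, n = 20 each). Its 95% intervals over wild type lay between -0.21 and 0.21. Epcam averaged 12.38 ± 0.41 in E2F1 null, 12.39 ± 0.19 in E2F2 null, 12.40 ± 0.26 in E2F3 heterozygous and 12.43 ± 0.35 in wild-type tumours. The log2 fold changes of Epcam were -0.06, -0.04 and -0.03 in that order of backgrounds, with intervals from -0.26 to 0.18 between them.

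Esrp2, by its brighter probe set 1433683_at, averaged 9.71 ± 0.46 in E2F1 null, 9.95 ± 0.28 in E2F2 null, 9.84 ± 0.33 in E2F3 heterozygous and 9.91 ± 0.36 in wild-type tumours. Its log2 fold change of -0.20 (SE 0.12, limma p = 0.0927) in E2F1 null tumours did not pass, and the second probe set, which correlated with the first at only r = 0.384 over 80 tumours, gave -0.03 (SE 0.11). Values of Esrp2 below come from the brighter one. Spint1 averaged 8.34 ± 0.39 in E2F1 null, 8.36 ± 0.32 in E2F2 null, 8.38 ± 0.39 in E2F3 heterozygous and 8.52 ± 0.38 in wild-type tumours. It had log2 fold changes of -0.18, -0.17 and -0.15 in these backgrounds (SE 0.12 each), all against the same wild-type tumours and none past the threshold. Krt18 averaged 13.12 ± 0.46 in E2F1 null, 13.34 ± 0.48 in E2F2 null, 13.30 ± 0.42 in E2F3 heterozygous and 13.10 ± 0.43 in wild-type tumours, and its largest log2 fold change was 0.22 (SE 0.15, limma p = 0.141) in E2F2 null tumours.

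**Figure D2:**
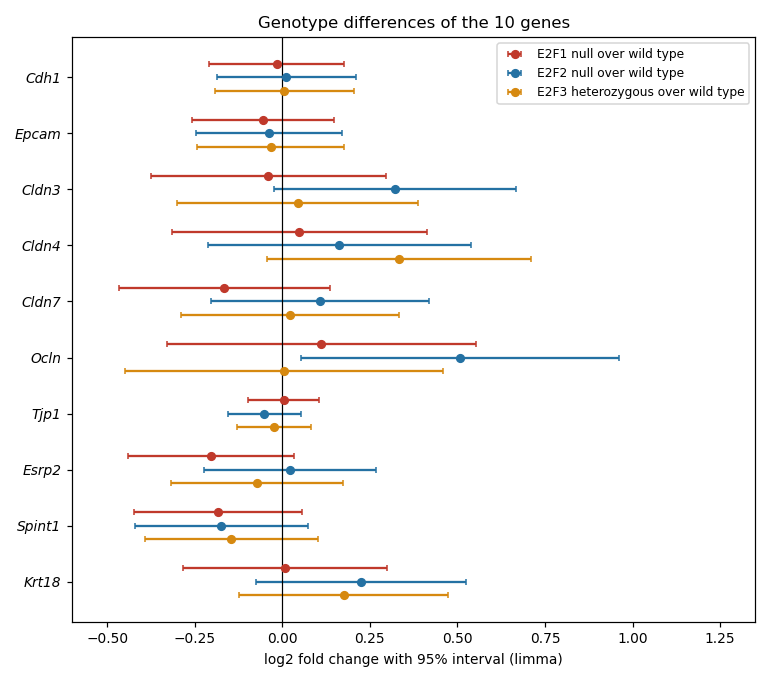
Log2 fold change of each gene over wild-type tumours, with the 95% interval from limma, for E2F1 null (red), E2F2 null (blue) and E2F3 heterozygous (orange) tumours. Only the interval of Ocln in E2F2 null tumours (0.05 to 0.96) leaves out 0, and its adjusted p over all genes was 0.788.

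Other epithelial genes gave no calls either: 0 of 18 tight junction genes, 0 of 13 adherens junction genes, 0 of 12 desmosome and gap junction genes, 0 of 4 simple epithelial keratins, 0 of 12 epithelial identity regulators, 0 of 8 surface proteases and inhibitors and 0 of 18 other epithelial membrane genes passed in any background. The smallest p-values were in E2F2 null tumours. Evpl, which encodes the desmosomal linker envoplakin, differed by -0.70 on the log2 scale (SE 0.23, limma p = 0.00332, adjusted p = 0.752). Ovol1, an epithelial zinc finger factor, had 0.45 (SE 0.16, limma p = 0.00472, adjusted p = 0.752). The tight junction scaffold Patj had -0.20 (SE 0.09, limma p = 0.021, adjusted p = 0.788) and the junction plakophilin Pkp4 had 0.24 (SE 0.11, limma p = 0.0286, adjusted p = 0.788). In E2F1 null tumours the smallest p-values of these lists ranged from 0.132 for Cd24a, a surface glycoprotein (-0.18, SE 0.12), to 0.346 for the plakophilin Pkp2 (-0.19, SE 0.20). In E2F3 heterozygous tumours Pkp4 had 0.17 (SE 0.11, limma p = 0.123) and the gap junction gene Gjb2 had 0.58 (SE 0.47, limma p = 0.226), both far from the adjusted threshold.

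Markers of other cells also gave 0 calls in each background, while their directions differed. In E2F2 null tumours 8 of 8 repressors of epithelial genes and 8 of 8 mesenchymal genes had log2 fold changes below 0, with medians of -0.19 and -0.21. So did 10 of 10 endothelial, 14 of 15 macrophage and 8 of 12 fibroblast markers there, and 53.7% of all tested genes. Adipocyte markers went both ways in E2F2 null tumours, with Car3 at 0.90 (SE 0.82) and Lpl at -0.13 (SE 0.35). Twist1, a helix-loop-helix factor, had -0.97 (SE 0.42, limma p = 0.0237, adjusted p = 0.788), and S100a4, a calcium-binding protein of motile cells, had -0.83 (SE 0.37, limma p = 0.0273, adjusted p = 0.788). In E2F3 heterozygous tumours 12 of 12 fibroblast markers and 8 of 8 mesenchymal genes were above 0, with medians of 0.35 and 0.26, as were 8 of 10 endothelial and 13 of 15 macrophage markers and 53.2% of all tested genes. In E2F1 null tumours 3 of 12 fibroblast markers, 4 of 8 mesenchymal genes, 9 of 10 endothelial and 6 of 15 macrophage markers were above 0, against 53.3% of all tested genes. The part of these cells in the genotype differences of the members was not tested. Such lists are not separate observations. Over the 53 label numbers the mean of the repressors had r = 0.83 with that of the mesenchymal genes. With that of the endothelial markers it had 0.80.

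For every member, the SD between tumours of 1 genotype was larger than any genotype difference. The SD within a genotype, pooled over the 4 groups, was 0.68 for Ocln, 0.56 for Cldn4, 0.52 for Cldn3, 0.47 for Cldn7, 0.45 for Krt18, 0.37 for Spint1, 0.36 for Esrp2, 0.31 for Epcam, 0.29 for Cdh1 and 0.15 for Tjp1. The median over all tested genes was 0.36. Ocln lay at the 80.3rd percentile of tested genes, Cldn4 at the 73.6th and Cldn3 at the 70.0th, while Tjp1 lay at the 1.12th. From the lowest to the highest of 80 tumours the signal spanned 10.1-fold for Cldn3, 9.72-fold for Ocln, 8.35-fold for Cldn4 and 6.25-fold for Cldn7. Tjp1 spanned 1.62-fold and was the most even member across tumours. Single tumours set part of these spans. Without E2F3 heterozygous replicate 4 the span of Cldn3 was 4.94-fold, and without E2F2 null replicate 19 that of Cldn7 was 3.33-fold, below the 4.31-fold of Spint1 and the 3.82-fold of Krt18. The SD of Cldn7 within a genotype was then 0.41. Without its lowest tumour Ocln still spanned 8.62-fold and Cldn4 5.89-fold, while Esrp2 spanned 2.63-fold without E2F1 null replicate 6, against 4.11-fold with it.

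Tumours that shared a label number resembled each other for some members. The median difference between 2 tumours of a genotype was smaller within a label number than between label numbers for Cdh1 (ratio 0.687), Esrp2 (0.699), Cldn7 (0.713) and Cldn3 (0.760). It was larger for Cldn4 (1.38), Tjp1 (1.10) and Spint1 (1.07), and over all genes the median ratio was 0.875. These ratios rest on 36 pairs within and 724 pairs between label numbers and are given as a description. Among the exceptions were E2F3 heterozygous replicates 4 and 5, which share a label number and had Cldn3 signals of 9.20 and 12.03.

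Single tumours were low in many members at once. E2F1 null replicate 6 was the lowest of all 80 tumours for Cdh1 (10.68), Epcam (11.38), Esrp2 (8.47) and Spint1 (7.44), against medians over the 80 of 11.56, 12.42, 9.93 and 8.45. Deviations from the mean of a tumour's own genotype were divided by each gene's SD within genotypes, pooled over the 4 groups. On that scale this tumour's mean over the 10 members was -2.02, and 8 members lay below -1, whereas Cldn4 stood at -0.002. The same tumour had a fibroblast marker score of 3.10, the highest of the 80, where a score is the mean over a list's tested genes of the log2 signal minus that gene's mean. On the same scale wild-type replicate 6 had a member mean of -1.28, with Epcam at -3.28, and a fibroblast score of 2.71. E2F2 null replicate 19 had a member mean of -1.64 and Cldn7 at -4.18, the lowest Cldn7 signal of the 80 tumours, but a fibroblast score of -0.13. E2F3 heterozygous replicate 4 had a member mean of -1.16 with Cldn3 at -4.39, a fibroblast score of -0.67 and a skeletal muscle score of 2.22. These 4 tumours had the lowest member means, and low members and high fibroblast markers went together in 2 of them. High fibroblast markers did not always come with low members. Wild-type replicate 18 had a fibroblast score of 2.06 and a member mean of 0.82. E2F3 heterozygous replicate 13, with a fibroblast score of 2.30, was on the low side. Its member mean was -0.55, with 2 members below -1, though above those of the 4 lowest tumours. The highest member mean, 1.28, was that of E2F3 heterozygous replicate 19, with 7 members above 1 SD within genotypes.

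The second question was which members varied together. Values were averaged per label number, and Pearson's r over the 53 means was tested by 100000 two-sided permutations with Benjamini-Hochberg adjustment over the 45 pairs. A permutation p cannot fall below 1e-05 with that number, so the smallest adjusted p-values below are upper limits. Of the 45 pairs, 40 had r above 0, the median r was 0.24, and 20 pairs passed an adjusted p of 0.05, all positive. Between a member and the tested genes outside the list, 51.2% of r values were above 0, their median was 0.01, and 10% reached 0.34, the smallest r among the 20 pairs. When the 2 label numbers farthest from the median of the first gene were left out, 12 of the 20 still had p under 0.05, and 9 passed by Spearman's rho as well. Without E2F1 null replicate 6 the count was 5 of 45, or 7 in 1 of 6 sets of permutations, so most of the 20 calls were lost without that tumour.

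Calls that held without it joined 4 genes, called the core below and grouped after their values were seen. Cldn3 and Ocln had r = 0.68 (rho 0.64, permutation adjusted p = 0.00015, and 0.63 without the 2 extreme label numbers), with r between 0.57 and 0.70 in each genotype. Cldn7 and Esrp2 had r = 0.65 (rho 0.67, permutation adjusted p = 0.00015, and 0.64 without the extremes). Cldn3 and Cldn7 had r = 0.63 (rho 0.64, permutation adjusted p = 0.000225), Cldn3 and Esrp2 had 0.58 (rho 0.53, permutation adjusted p = 0.00015), and Cldn7 and Ocln had 0.54 (rho 0.48, permutation adjusted p = 0.00063). These 5 pairs were the 5 that also passed without E2F1 null replicate 6, where r was 0.65, 0.62, 0.59, 0.48 and 0.50. The sixth pair of the core, Ocln and Esrp2, had r = 0.40 and dropped to 0.30 (adjusted p = 0.0801) without that tumour. All 6 pairs had r above 0 in all 4 genotypes. Among all tested genes, Cldn3 was the 14th closest to Ocln and Ocln the 20th closest to Cldn3, while Esrp2 was the 23rd closest to Cldn7 and Cldn7 the 85th closest to Esrp2. The median size of r with any tested gene was 0.26 for Ocln, 0.25 for Cldn3 and 0.21 for Cldn7.

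Genes that lie near each other did not stand out. Cldn3 and Cldn4, 41.1 kb apart, had r = 0.15 (permutation adjusted p = 0.386), and Cldn4 passed with Cldn7 alone (r = 0.34, adjusted p = 0.0293, and 0.0614 without E2F1 null replicate 6). Cdh1 and Esrp2, whose starts are 473 kb apart on chromosome 8, had r = 0.39 (permutation adjusted p = 0.0125), which became 0.22 (adjusted p = 0.245) without that tumour. E-cadherin was not part of the core: with Ocln its r was 0.07, and its r of 0.39 with Cldn3 and 0.40 with Cldn7 became 0.26 and 0.33 without E2F1 null replicate 6. Epcam and Spint1, both membrane proteins, had r = 0.45 and Cdh1 and Spint1 0.44, with 0.35 and 0.34 without that tumour and adjusted p = 0.0614 for each. Tjp1 had r below 0 with Cldn3 (-0.24), Esrp2 (-0.18), Ocln (-0.11) and Cldn7 (-0.07), and passed with Spint1 alone (r = 0.38, adjusted p = 0.0141 by the permutation test). That adjusted p was 0.0511 without E2F1 null replicate 6, and without the 2 extreme label numbers r was 0.24 (p = 0.0878), so this relation rests on those samples.

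**Figure D3:**
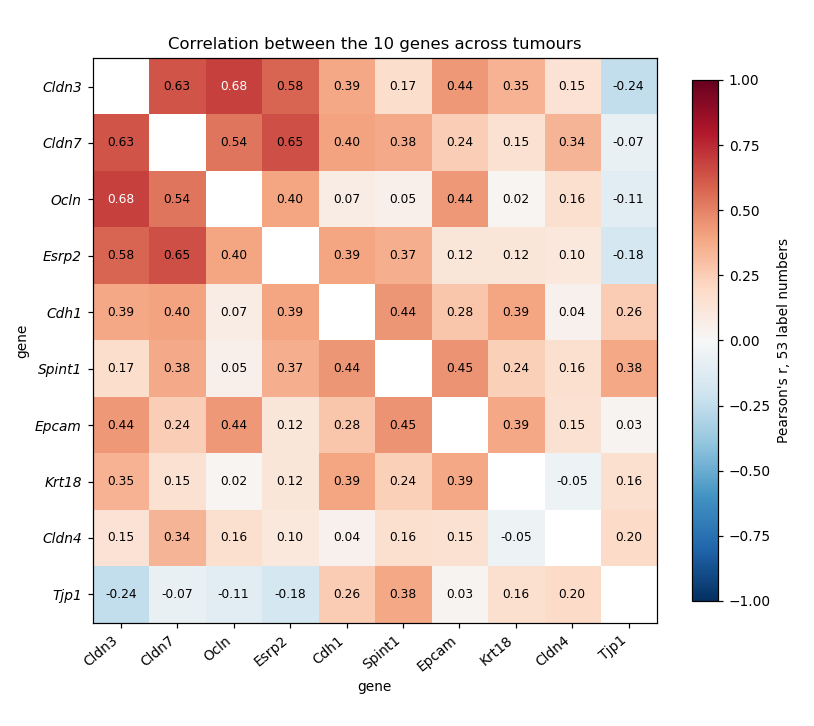
Pearson's r between each pair of the 10 genes over 53 label number means, written in each cell and coloured from -1 (blue) to 1 (red). The block at the top left holds Cldn3, Cldn7, Ocln and Esrp2 with r from 0.40 to 0.68, and the bottom row shows Tjp1 below 0 with these 4 genes.

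For each member, the 2 most similar genes outside the list were found by Pearson's r over the 53 label numbers among all tested genes, which is a description. Ocln was closest to Oxa1l (0.79), a mitochondrial membrane insertase, and Ppp1cb (0.75), a protein phosphatase subunit. Cldn3 was closest to Rab25 (0.78), an epithelial vesicle-recycling GTPase, and Coasy (0.75), an enzyme of coenzyme A synthesis. Stap2, an adaptor protein, was the nearest gene of both Cldn7 (0.79) and Esrp2 (0.77), followed by Ckmt1 (0.77), a mitochondrial creatine kinase, for Cldn7 and Mtrr (0.76), methionine synthase reductase, for Esrp2. The neighbours of the core were thus outside the junction lists, apart from Rab25 among the other epithelial membrane genes.

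Cdh1 was closest to Grhl2 (0.74), a grainyhead transcription factor of epithelial identity, and Ccdc120 (0.61). Epcam was closest to Spint2 (0.78), a protease inhibitor related to Spint1, and the receptor Erbb3 (0.74). Tjp1 was closest to F11r (0.59), which encodes the junctional adhesion molecule that binds ZO-1, and Kazald1 (0.57). Each of these 3 members therefore had a gene of the epithelial lists as its nearest gene. Spint1 was closest to Arrdc1 (0.70) and Dock9 (0.67), and Cldn4 had the weakest neighbours, Qsox1 (0.50) and the Wnt receptor Fzd8 (0.48).

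The third question was how the members moved with known repressors of epithelial genes. Zeb1 exceeded a log2 signal of 6.31 in 17, 15, 20 and 14 of 20 E2F1 null, E2F2 null, E2F3 heterozygous and wild-type tumours. Snai1 did so in 5, 2, 6 and 6, Snai2 in 7, 6, 7 and 9, Twist1 in 8, 1, 5 and 7, and Zeb2 in 9, 6, 14 and 9. Most values of Snai1, Snai2 and Twist1 were therefore low, where array signals are least certain. Of 50 relations between a member and a repressor, 21 passed an adjusted p of 0.05, 20 of them negative, and 14 kept a p under 0.05 without the 2 extreme label numbers. Many other genes moved with these 5 factors too: 22% of their relations with tested genes outside the members had an r at or below -0.32, the size of the smallest r called here.

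Ocln and Snai1 had the strongest relation, r = -0.73 (rho -0.76, permutation adjusted p = 8.33e-05, and -0.71 without the extremes). Snai1 had lowest, median and highest log2 signals of 3.10, 5.68 and 7.10 in E2F1 null, 4.19, 5.12 and 6.69 in E2F2 null, 4.60, 5.61 and 7.43 in E2F3 heterozygous, and 4.52, 5.61 and 6.99 in wild-type tumours. Tumours with more Snai1 had less Ocln in every genotype: r was -0.74 in 20 E2F1 null, -0.47 in 20 E2F2 null, -0.77 in 20 E2F3 heterozygous and -0.81 in 20 wild-type tumours. Cldn3 had r = -0.67 with Snai2, -0.62 with Twist1, -0.60 with Zeb1, -0.54 with Zeb2 and -0.53 with Snai1. Twist1 was negative with all 4 core genes: -0.64 with Ocln, -0.62 with Cldn3, -0.59 with Esrp2 and -0.53 with Cldn7 (permutation adjusted p = 8.33e-05 for each). These 4 were between -0.50 and -0.62 without E2F1 null replicate 6.

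Outside the core the relations were fewer. Cdh1, Spint1 and Cldn4 had 0 of 5 past the threshold each, and r of Cdh1 ran from -0.29 with Zeb1 to 0.08 with Snai1. Epcam and Zeb1 had r = -0.53 (permutation adjusted p = 0.000682), but -0.21 (permutation p = 0.139) without the 2 extreme label numbers, and Krt18 and Zeb1 had -0.33, or -0.24 (permutation p = 0.0837) without them. Tjp1 and Twist1 had the 1 positive relation past the threshold, r = 0.35 (permutation adjusted p = 0.0297), and 0.23 (permutation p = 0.106) without the extremes. It was 0.38 without E2F1 null replicate 6. The E-box described above occurs in the promoters of Cldn3, Cldn7 and Ocln, and also in those of Cldn4, Epcam and Krt18, which had 0, 2 and 1 of 5 relations past the threshold.

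Repressor levels moved with markers of stromal cells, which express several of these factors: over 53 label numbers the repressor score had r = 0.74 with the fibroblast score, 0.80 with the endothelial and 0.73 with the macrophage score. Scores of 9 lists, repressors included, gave 32 of 90 relations with a member past an adjusted p of 0.05, 29 negative and 3 positive, and 21 kept a p under 0.05 without the extremes. The count past the threshold was 31 in most of 6 sets of permutations. Over the tested genes outside the members and the list in question, 20.6% of relations with these scores were negative and 20.1% positive at or past the smallest size of r called, 0.32. Cldn3 was negative with the fibroblast (-0.61), endothelial (-0.63), macrophage (-0.50) and basal and myoepithelial (-0.48) scores, and Ocln with the same 4 at -0.45, -0.52, -0.47 and -0.41. With the fibroblast score removed from both measures, as described in the next paragraph, the macrophage and basal relations of Cldn3 turned sign (0.090 and 0.089). Epcam had -0.50 with both the fibroblast and the endothelial scores, which became -0.20 and -0.15 without the 2 extreme label numbers. Its relations with the mesenchymal (-0.46), macrophage (-0.44) and basal (-0.39) scores also passed, and became -0.19, -0.10 and -0.19. Those with the lymphocyte (-0.36) and adipocyte (-0.35) scores held, at -0.37 (permutation p = 0.00743) and -0.44 (permutation p = 0.00109) without the extremes. Cldn7 had -0.36 with the endothelial score (permutation adjusted p = 0.0355) and -0.19 with the fibroblast score (not past the threshold). Esrp2 had -0.49 with the endothelial score (permutation adjusted p = 0.00283). Krt18 was negative with 5 scores, at -0.42 with the lymphocyte, -0.34 with the fibroblast, endothelial and macrophage and -0.32 with the adipocyte score, and those with the fibroblast, endothelial and macrophage scores had p from 0.0854 to 0.113 without the extremes. Cdh1, Cldn4 and Spint1 had 0 relations past the threshold. Tjp1 was positive with the endothelial score (0.36) and the repressor score (0.36), which were 0.27 (permutation p = 0.0543) and 0.20 (permutation p = 0.154) without the extremes. Without E2F1 null replicate 6, however, these 2 relations were stronger, at 0.49 and 0.43. Esrp2 was positive with the lymphocyte score (0.43), which rests on 2 tested genes.

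All 12 fibroblast markers and all 10 endothelial markers were tested. The summed fibroblast intensity ran from 4191 to 114408 in E2F1 null, 6032 to 39179 in E2F2 null, 8043 to 76433 in E2F3 heterozygous and 5885 to 90761 in wild-type tumours. With the fibroblast score removed by linear regression from both measures, a setting added once the data had been seen, the repressor score had r = -0.62 with Esrp2, -0.60 with Cldn7, -0.59 with Ocln and -0.47 with Cldn3. For the 6 other members r ran from -0.17 to 0.27. Ocln and Snai1 then had -0.66 and Cldn3 and Twist1 -0.47, while Cldn3 and Zeb1 had -0.11 and Epcam and Zeb1 -0.21. Only the fibroblast score was removed, although the repressor score had r = 0.83 with the mesenchymal and 0.80 with the endothelial score. The pairs Cldn3 and Ocln (0.58), Cldn3 and Cldn7 (0.66) and Cldn7 and Esrp2 (0.63) stayed positive on the same scale.

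**Figure D4:**
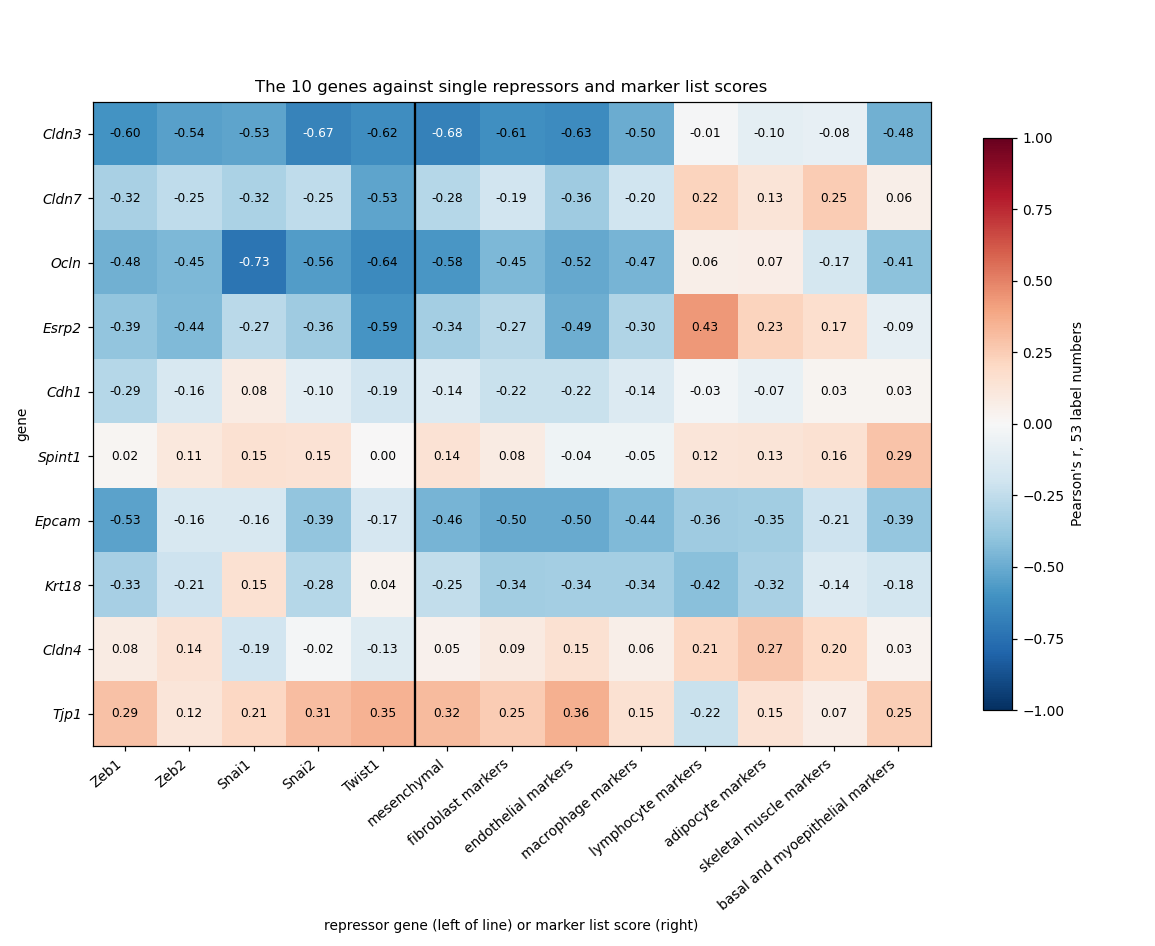
Pearson's r over 53 label number means of each of the 10 genes with 5 single repressors (left of the line) and 8 marker list scores (right), from -1 (blue) to 1 (red). Cldn3, Ocln, Esrp2, Cldn7 and Epcam are negative with all 5 repressors, Epcam at -0.16 to -0.53. Cdh1, Spint1 and Cldn4 stay between -0.29 and 0.15 with them and Tjp1 is positive.

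The other epithelial genes were ordered differently by different members. Median r with the 12 tested epithelial identity regulators was 0.38 for Cldn3, 0.33 for Esrp2, 0.32 for Krt18, 0.31 for Cldn7, 0.31 for Cdh1 and 0.24 for Ocln, but -0.07 for Cldn4 and -0.06 for Tjp1. All 12 were positive with Cdh1 alone among the members. The adherens junction genes did not follow the core: their median r was -0.04 with Cldn3, -0.21 with Ocln and -0.09 with Esrp2, against 0.27 with Tjp1 and 0.26 with Spint1. Within that list Nectin3, which encodes an adhesion molecule of adherens junctions, was the lowest for all 4 core genes, at -0.74 with Ocln, -0.72 with Cldn3, -0.69 with Esrp2 and -0.55 with Cldn7. Fn1, the matrix protein fibronectin, was the lowest of the mesenchymal genes for the same 4, at -0.72 with Ocln, -0.71 with Cldn3, -0.43 with Esrp2 and -0.41 with Cldn7. Both were singled out after their values were seen.

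Tumours of this series also differ in the summed expression of whole chromosomes, and each member was compared with the mean centred log2 signal of the other tested genes on its chromosome. Of 10 relations, 5 passed an adjusted p of 0.05, 3 positive and 2 negative. Of the other tested genes on these chromosomes, 35% had a positive and 8.5% a negative r at or past the smallest size called, 0.34, so the count of positive calls was close to the share over all of them. Krt18 and chromosome 15 had r = 0.75 (rho 0.79, permutation adjusted p = 0.0001, and 0.75 without the extremes). Within genotypes, r was 0.77 in 20 E2F1 null, 0.75 in 20 E2F2 null, 0.81 in 20 E2F3 heterozygous and 0.75 in 20 wild-type tumours. The score ran from -0.34 to 0.42 in E2F1 null, -0.39 to 0.50 in E2F2 null, -0.38 to 0.36 in E2F3 heterozygous and -0.35 to 0.35 in wild-type tumours, so every genotype held tumours at both ends. Over label numbers the score of chromosome 15 had a range of 0.79, against at most 0.53 for the other chromosomes that carry a member. The 354 tested genes of chromosome 15 had a median r of 0.50 with it, and Krt18 lay at the 92.4th percentile among them.

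The 2 genes nearest to Krt18 in pattern, Puf60 (0.85), a splicing factor, and Maf1 (0.81), a repressor of RNA polymerase III, are also on chromosome 15. Krt8, the keratin that pairs with Krt18, lies on the same chromosome and had r = 0.67 with Krt18 and 0.48 with the chromosome 15 score. With that score removed from both, Krt18 and Krt8 had r = 0.54. The start of Krt18 is 40.04 Mb from that of Myc. Among the other members, the closest to Krt18 was Cdh1 at r = 0.39.

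Among the others, Cldn3 had r = -0.55 with chromosome 5 (permutation adjusted p = 0.0002), while its neighbour Cldn4 had 0.005. Spint1 had 0.51 with chromosome 2 (permutation adjusted p = 0.0008), Ocln -0.35 with chromosome 13 (permutation adjusted p = 0.0246), and Tjp1 0.34 with chromosome 7 (permutation adjusted p = 0.0271, but r = 0.18 and permutation p = 0.219 without the extremes). Spint1 and Ocln share their chromosomes with E2f1 and E2f3, at 35.3 and 70.6 Mb. The calls of Ocln and Tjp1 were lost with the mean of all probe sets (adjusted p = 0.116 and 0.0703), with quantile normalization and over the 80 single tumours, and that of Ocln also without E2F1 null replicate 6 (adjusted p = 0.0622). With the fibroblast score removed, r was 0.13 for Ocln, so its sign turned, and -0.15 for Cldn3 (adjusted p = 0.453). For Cldn3 and Ocln the sign was opposite to the median r of the genes on their chromosomes, 0.08 and 0.07.

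**Figure D5:**
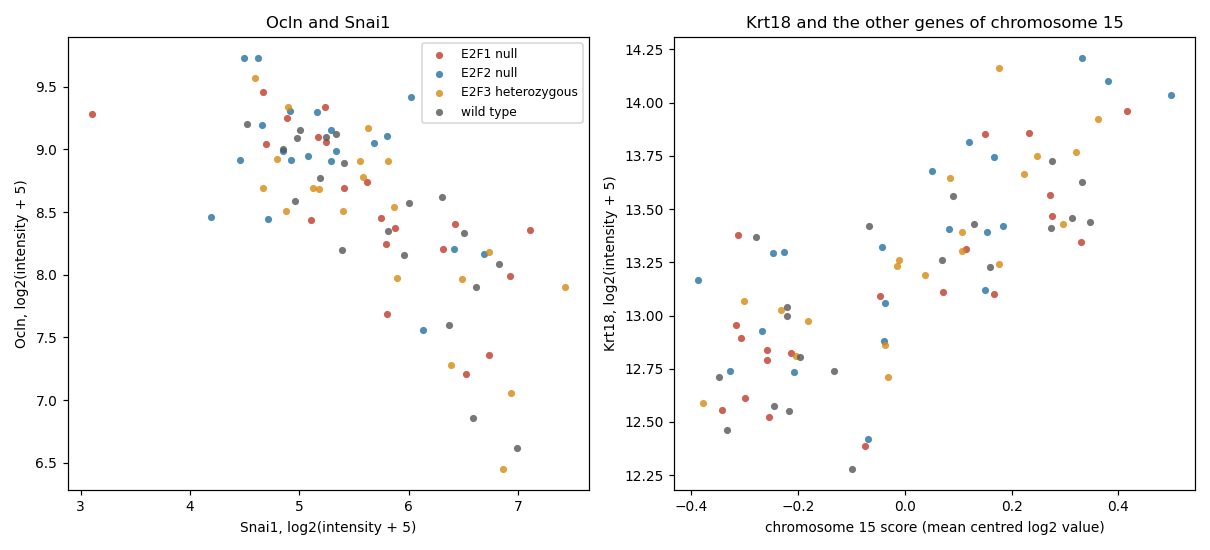
Left, Ocln against Snai1, both as log2(intensity + 5), and right, Krt18 against the mean centred log2 signal of the other tested genes of chromosome 15, with 1 point per tumour coloured by genotype. Within each genotype r is below 0 on the left (-0.47 to -0.81) and above 0 on the right (0.75 to 0.81), and over 53 label numbers r is -0.73 and 0.75. The tumour with the lowest Ocln is the one with the highest Snai1 in wild-type tumours but not in the other 3 groups.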

How the data were processed

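Per the submitters' processing notes, the authors made the deposited intensity values with Affymetrix Expression Console and MAS5, with no version or genome build named. The table holds 22690 probe sets on 80 arrays; 64 control probe sets were left out. Probe sets were named from the platform annotation: 20380 had 1 gene symbol, 691 several and 1555 none, and only the first kind was named. Deposited intensities were converted to log2(value + 5). Genes above the 40th percentile (74.6) on at least 10 arrays were tested by their brightest probe set.

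Groups came from the genotype labels. Fits were made in R 4.3.3 by limma 3.58.1 with statmod 1.5.0 (label number as random block, intensity trend, robust, two-sided), after tests on simulated data. The array number limits the precision. Correlations were computed in Python 3.11.15 (scipy 1.17.1, numpy 2.4.6, pandas 2.3.3) and plotted by matplotlib 3.10.9. Promoters and positions came from RefSeq tables of GRCm38.p6. Members and gene lists were chosen with earlier results of these data known. Genes named outside the list were the 2 nearest in pattern to each member, the lowest p in each epithelial list and comparison, and 5 repressors. Named as well were the E2F genes, Myc, S100a4 and Krt8. Nectin3 and Fn1 were singled out after their values were seen. Alternatives changed the pseudocount, filter, normalization, block, probe set choice, samples fitted, and use of E2F1 null replicate 6. Removing the fibroblast score was added after the data were seen.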

Additional observations from a re-analysis of the deposited data

How the results depend on the processing

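No alternative called a member in any genotype comparison. Over 312 recomputed fold changes the limma adjusted p ran from 0.617 to 1, and 13 turned sign, all within 0.032 of 0. With quantile normalization Krt18 became -0.01 in E2F1 null (-0.0075), Cdh1 -0.0021 in E2F2 null and Ocln -0.0028 in E2F3 heterozygous over wild-type tumours. Without the block Ocln became -0.0096 in E2F3 heterozygous tumours. With 1 mean per label number Krt18 became -0.022 and Tjp1 -0.0061 in E2F1 null, Cdh1 -0.0077 and Esrp2 -0.0063 in E2F2 null, and Cdh1 -0.019 and Cldn7 -0.025 in E2F3 heterozygous tumours. Without E2F1 null replicate 6 Cdh1 became 0.032 and Cldn3 0.024 in E2F1 null tumours, and by probe set 1426332_a_at Cldn3 became -0.015 in E2F3 heterozygous tumours. The pairs of members past the threshold numbered 5 without E2F1 null replicate 6, against 20, and 19 to 23 under the other planned settings. Relations with chromosome scores numbered 3 with the mean of all probe sets, against 5, and those lost were Ocln and Tjp1. Relations with marker scores numbered 15 with the fibroblast score removed, against 32 (31 in most of 6 sets of permutations), partly because fewer lists were compared. With that score removed, 5 relations turned sign: Epcam with the mesenchymal (0.088) and basal (0.070) scores, Cldn3 with the macrophage (0.090) and basal (0.089) scores, and Ocln with its chromosome (0.129). The causes were not tested. Over all genes, every probe set tested alone gave 12 calls in E2F1 null, 5 in E2F2 null, 1 in E2F3 heterozygous tumours and 33 by the F test, against 4, 2, 0 and 13. The mean of all probe sets gave 8 in E2F1 null tumours, and the F test gave 8 with quantile normalization or 1 mean per label number. No paired analysis was possible because the replicate numbers are accession order and pair no tumours across genotypes.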
